A study of Mus musculus with 14 samples.

Results

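The mitochondrial ribosomal protein genes described here are the 76 genes whose symbols begin with Mrpl or Mrps and a number in the expression table of differentiating Ocy454 cells, out of 39179 genes listed there. 4 pseudogenes with such symbols were left out, and the members were found again by gene identifier in the sorted cells, where 75 of the 76 were listed. 47 members carry an Mrpl symbol and 29 an Mrps symbol. Placed by the known structure of the ribosome, 49 members encode proteins of the large subunit and 26 proteins of the small subunit. Mrps30 and Mrps18a were counted with the large subunit, where their proteins sit. Mrps36 belongs to neither, since its protein is a subunit of the 2-oxoglutarate dehydrogenase complex.

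Mitochondrial ribosomes translate the few mRNAs of the mitochondrial genome, whose products are membrane subunits of the respiratory chain and of ATP synthase. Their RNA comes from the mitochondrial genome, whereas all of their proteins are encoded in the nucleus, made in the cytosol and imported. Many of these proteins descend from bacterial ribosomal proteins, and others were gained by mitochondria. In osteocytes, the cells embedded in bone matrix, mitochondria supply ATP and meet the cost of matrix production and mineralization during maturation from osteoblasts.

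Ocy454 is a mouse line with features of osteocytes. Every group carries its transgene, a large T antigen that is active at the growth temperature of 33 °C and loses activity when the culture is moved to 37 °C for differentiation. The differentiation experiment holds 8 libraries of wild-type cells, with 2 biologic replicates after 1, 7, 10 and 14 days at 37 °C. In the sort, cells matured for 17 days were labelled for surface CD61, the integrin beta-3 subunit encoded by Itgb3, and live cells of the top 10% (CD61high) and the bottom 10% (CD61low) were collected, with 3 replicates each. All cells come from a single line.

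Between 27518605 and 34311238 reads on genes stood behind each differentiation library, and between 18815602 and 19220064 estimated counts behind each sorted library. Itgb3 measured 5.31, 5.54 and 6.10 CPM (counts scaled to library size, here with TMM factors) in CD61low and 130.1, 100.1 and 103.6 in CD61high, so the gates differ as labelled. Of 12 osteoblast and osteocyte markers 10 were tested in each experiment, of which 8 were higher and 2 lower at day 14 than at day 1, and 9 were higher and 1 lower in CD61high. Of 8 blood cell markers 2 were high enough to be tested, Cd68 and Cd14, and the pan-leukocyte marker Ptprc did not exceed 0.0627 CPM in any library. In bulk RNA of this kind, fewer cells of a type and less RNA per cell cannot be told apart.

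Levels of different members were compared per transcript length, in TPM, which divides counts by transcript length before scaling to the library, summed over the transcripts of a gene in the 6 sorted libraries of both gates. Mrps21, a short small subunit protein, stood highest at 459 ± 22.3 TPM (SD, n = 6). The SDs given here span both gates and so include any difference between them. After Mrps21 came Mrpl30 at 219 ± 20.7 TPM, Mrpl14 at 159 ± 16.1 TPM and Mrpl28 at 119 ± 9.36 TPM. Mrps21, Mrpl30 and Mrpl14 held the same order in both gates. The fourth place did not, since Mrpl28 averaged 124 TPM in CD61low, where Mrpl42 (135 TPM) and Mrpl52 (131 TPM) stood above it, and 115 TPM in CD61high, where it stood above both. Among the 74 members tested the lowest means over both gates were those of Mrpl46 at 12.5 ± 3.08 TPM, Mrpl47 at 12.1 ± 1.88 TPM, Mrpl44 at 11.99 ± 2.10 TPM and Mrpl19 at 7.71 ± 1.21 TPM. Mrpl19 was the lowest tested member in each gate, at 7.29 TPM in CD61low and 8.13 TPM in CD61high, whereas in CD61high Mrpl32 (9.18 TPM) and Mrps27 (9.20 TPM) came next. Mrpl1, which was too low to be tested, lay below all of these, between 0 and 4.79 TPM.

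The members together took between 0.260% and 0.296% of all reads in the differentiation libraries. Their sum was 2963 CPM in each of the day 1 libraries, 2852 and 2924 CPM after 7 days, 2651 and 2602 CPM after 10 days and 2651 and 2774 CPM after 14 days. Both day 10 libraries lay below both libraries of days 1 and 7. The ratio of large to small subunit mRNA was 2.05 ± 0.0356 (SD, n = 2) at day 1 and 2.06 ± 0.00264 at day 14. In the sort the ratio was 1.92 ± 0.0203 in CD61low and 1.93 ± 0.0193 in CD61high (n = 3).

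The first comparison asked how the members differ between the ends of differentiation, day 14 against day 1. A gene is called changed at an adjusted p below 0.01 by limma, fitted over all genes on log2(CPM + 1), and Log2FC is the difference on that scale. Of the 75 members tested, 30 fell (40%), 9 rose (12%) and 36 were not called. Across all 12725 genes tested 36% fell and 32.6% rose. The members' median Log2FC was -0.14, beside -0.03 for all genes. On this scale no member reached a Log2FC of 1 in either direction, against 7.51% of all genes that passed it upwards and 5.90% downwards with the call, and the members' values ran from -0.98 to 0.45. Mrps6 passed a Log2FC of -1 with a pseudocount of 0.1 (-1.02), after quantile normalization (-1.01) and without day 14 replicate 2 (-1.12), as did Mrpl16 in the last (-1.01). By subunit, 18 of 48 large subunit members fell and 5 rose, and 12 of 26 small subunit members fell and 4 rose. By ancestry, 22 of 47 members shared with bacteria fell and 6 rose, against 8 and 3 of 27 members that only mitochondria have. No test between these groups was made.

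Mrps6, a protein of the small subunit platform, showed the deepest fall. Its CPM were 36.01 and 36.6 on day 1, 24.9 and 24.5 on day 7, 21.3 and 23.01 on day 10, then 16.1 and 19.8 on day 14. Each day lay below the one before without overlap, and day 14 was below day 1 with a Log2FC of -0.98 ± 0.0778 (SE, adjusted p = 1.34e-11). Mrps6 shares exon sequence on the same strand with Slc5a3, a myo-inositol transporter gene, and reads of the 2 genes may have been divided between them. Slc5a3 had 41.0 and 40.3 CPM on day 1, then 22.8 and 19.5, then 41.7 and 46.3, then 23.7 and 22.2 on day 14. It therefore followed another course than Mrps6 at day 10, but it too was lower at day 14 (Log2FC -0.80, adjusted p = 1.40e-10).

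Mrpl16, which lies near the A-site tRNA of the large subunit, went from 31.8 and 34.9 CPM to 16.03 and 20.1 CPM (Log2FC -0.86 ± 0.0823, adjusted p = 6.35e-10). Mrpl22 and Mrpl4 encode proteins that line the exit tunnel for the new peptide. Mrpl22 went from 13.9 and 13.7 CPM to 8.74 and 7.12 CPM, with a Log2FC of -0.73 ± 0.0976. Mrpl4 held 38.3 and 41.2 CPM on day 1 and 35.5 and 38.9 CPM a week in, then 24.6 and 23.98, then 22.9 and 25.2 CPM on day 14. Its fall (Log2FC -0.70 ± 0.0670, adjusted p = 5.57e-10) thus lay mostly in the interval between days 7 and 10. Mrps11, of the small subunit platform, dropped from 34.8 and 36.9 to 21.4 and 22.3 CPM, a Log2FC of -0.69. Mrpl41, a protein that bacteria lack, dropped from 19.7 and 20.01 to 12.5 and 12.9 CPM, a Log2FC of -0.61. For all of these the libraries of the 2 days did not overlap.

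The 9 members that rose did so by a Log2FC of at most 0.45. Mrps35, a mitochondria-specific small subunit protein, went from 28.9 and 27.9 CPM to 38.9 and 39.1 CPM, with a Log2FC of 0.45 ± 0.0612 (adjusted p = 3.36e-07). Mrps9, of the small subunit head, rose from 34.5 and 30.9 to 42.6 and 46.95 CPM (Log2FC 0.44). Mrpl30 rose from 51.6 and 56.6 to 68.0 and 70.6 CPM (0.35), and Mrpl9 from 92.1 and 90.2 to 109 and 116 CPM (0.30). All 4 showed day 14 libraries above both day 1 libraries. Mrpl24 and Mrpl14 rose by a Log2FC of 0.28 each. The call of Mrpl14 was lost without day 1 replicate 2, and that of Mrps21 (Log2FC 0.14) was lost when any 1 of 7 libraries was left out.

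**Figure D1:**
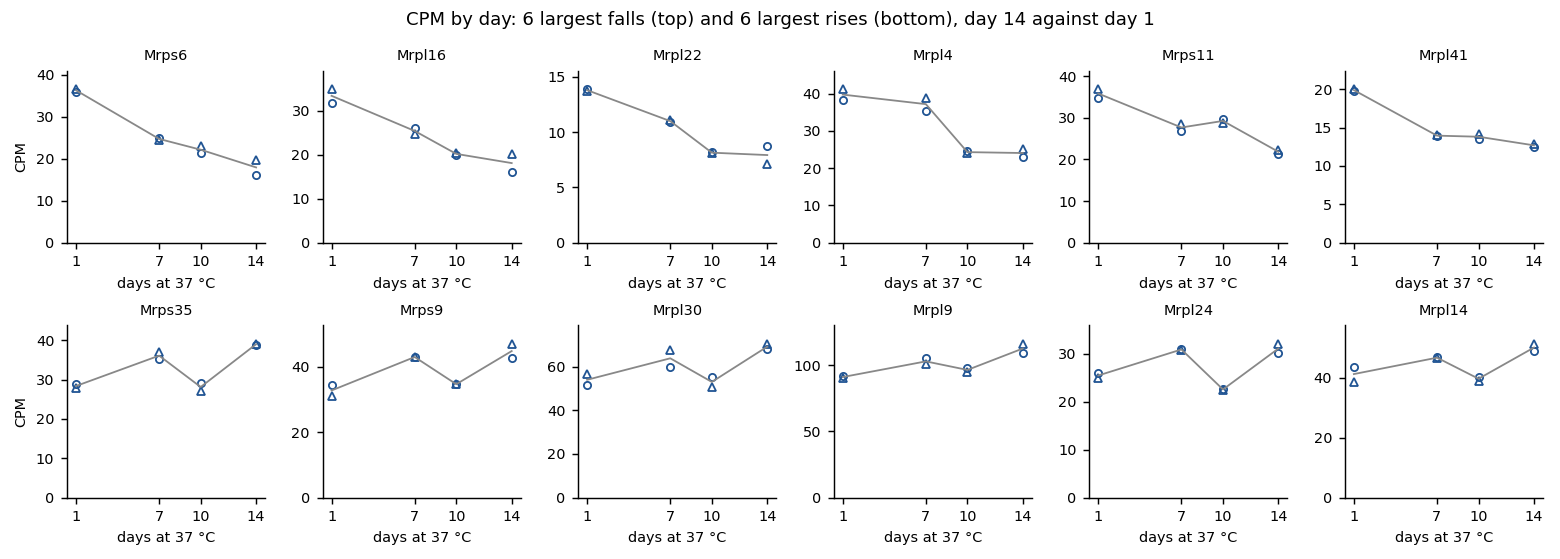
CPM (vertical axes, from 0) against days at 37 °C for the 6 members with the largest falls (top row) and the 6 with the largest rises (bottom row) from day 1 to day 14; circles are replicate 1, triangles replicate 2 and lines join the means of n = 2. Mrps6 steps down at each day, from a mean of 36.3 to 17.9 CPM, whereas all 6 members of the bottom row have a lower mean at day 10 than at day 7 and a higher one at day 14.

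Members with a known place or history were read whatever their values. The stalk and its base, where translation factors dock, hold Mrpl10, Mrpl11 and Mrpl12. None of them was called at day 14 against day 1, with Log2FC between -0.09 and 0.09, but Mrpl12 was called lower without day 14 replicate 2 (-0.17). Mrpl45, which ties the ribosome to the inner membrane, had a Log2FC of 0.17 (adjusted p = 0.0115) and was not called. It was called under quantile normalization, under TMM scaling, by edgeR on recovered reads and with the replicate number as a block. Leaving out day 1 replicate 2 or day 14 replicate 1 also gave the call. Mrps12, at the decoding centre, fell from 31.6 and 30.4 to 20.95 and 24.8 CPM (Log2FC -0.43, adjusted p = 3.54e-05). Mrps16, Mrps22, Mrps34 and Mrpl44 were picked from the genes known from inherited disorders of mitochondrial translation. None of these was called, with values between -0.09 and 0.08. They do not stand for all such genes, which were not read as a group.

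The 3 paralogs of the MRPS18 family were read side by side. Mrps18b fell from 16.4 and 15.8 to 11.7 and 10.3 CPM (Log2FC -0.51 ± 0.0854, adjusted p = 7.00e-06). Mrps18a and Mrps18c, whose proteins sit in different subunits, had a Log2FC of -0.08 ± 0.0531 and -0.12 ± 0.0686 and were not called. The difference between the paralogs was not tested. Mrps30, another protein named for the small subunit but placed in the large one, had a Log2FC of -0.19 (adjusted p = 0.0189). Mrps36 measured between 2.53 and 3.29 CPM in all 8 libraries and was not called.

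**Figure D2:**
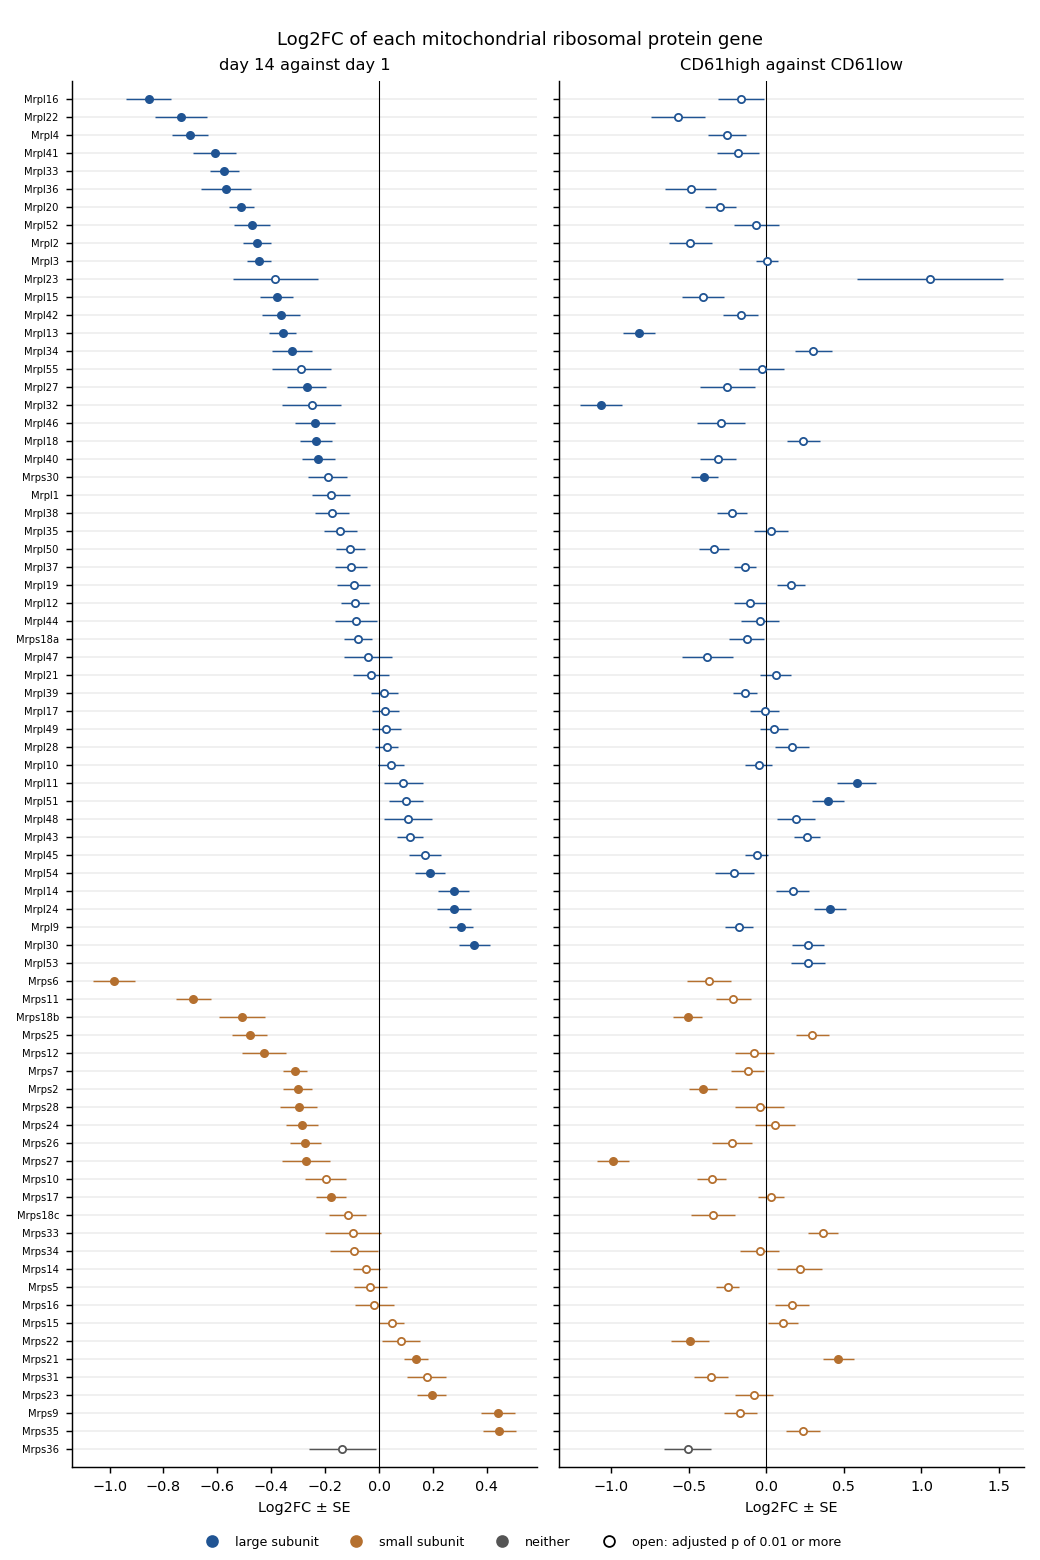
Log2FC with its SE (horizontal axes) of each member for day 14 against day 1 (left, n = 2 per day) and for CD61high against CD61low (right, n = 3 per gate), ordered within each subunit by the left panel; filled points have an adjusted p below 0.01. On the left 30 members are filled below 0 and 9 above it; on the right 7 and 4. The wide bar of Mrpl23 on the right is a Log2FC of 1.06 with an SE of 0.471.

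The next comparisons followed the members through the 3 intervals, which share the libraries of the days between them and are therefore given side by side. From day 1 to day 7, 16 of 75 members fell and 11 rose, against 32% and 24.5% of all genes, and the median Log2FC was -0.06 beside -0.05 for all genes. From day 7 to day 10, 29 members fell and 1 rose, against 18.9% and 29.8% of all genes. The median of -0.15 stood beside 0.07 for all genes, and 60 of the 75 members had a Log2FC below 0. From day 10 to day 14, 8 fell and 15 rose, against 30% and 22.9% of all genes, with a median of 0.04 beside -0.04. The gap between the members' median and that of all genes was thus -0.22 in the interval from day 7 to day 10, beside -0.01 before it and 0.08 after it. Scaled by TMM, the counts were 10 down and 12 up, then 40 down and 0 up (1 up at an unadjusted p below 0.05 by limma, and 0 up by edgeR), then 5 down and 22 up. Of all genes, TMM scaling called 28.1% down and 28.1% up, then 24.8% and 23.1%, then 24.5% and 27.6%. In the single-library omissions that follow, which leave 1 library on a day, fewer of all genes were called too. Without day 7 replicate 2, 16 in place of 29 members fell from day 7 to day 10, and 6 in place of 11 rose from day 1 to day 7. In that first interval 10 fell without day 1 replicate 1, 8 fell and 5 rose without day 1 replicate 2, and 9 fell without day 7 replicate 1. In the last interval 4 in place of 8 fell without day 10 replicate 1 or day 14 replicate 1.

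Within the first week the deepest falls were those of Mrps6 (Log2FC -0.54) and Mrpl41 (-0.48), and the largest rises those of Mrps9 (0.38) and Mrps35 (0.34). Mrpl41 went from 19.7 and 20.01 CPM to 13.9 and 13.97 CPM. Mrps9 went from 34.5 and 30.9 to 42.9 and 43.0 CPM. In both genes the 2 days did not overlap.

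Between days 7 and 10 the deepest falls were those of Mrpl4, whose values are given above, and Mrpl42. Mrpl42, a mitochondria-specific protein of the large subunit, went from 30.4 and 29.7 CPM to 18.6 and 21.4 CPM (Log2FC -0.57 ± 0.0696, adjusted p = 1.26e-07). It stood at 28.2 and 26.8 CPM at day 14, a Log2FC of 0.45 over day 10. Mrps35 had a like course, from 35.2 and 37.0 to 29.2 and 27.1 and then 38.9 and 39.1 CPM, which gave Log2FC of -0.35 and 0.46. Mrpl24 measured 31.1 and 30.7, then 22.7 and 22.4, then 30.1 and 32.1 CPM. In these 3 genes both day 10 libraries lay below all libraries of days 7 and 14. Mrpl49 was the single member that rose in this interval, from 54.7 and 56.1 to 65.8 and 62.6 CPM (Log2FC 0.21 ± 0.0537, adjusted p = 0.00171). That call was lost under TMM scaling and without day 7 replicate 1 or day 10 replicate 1. From day 10 to day 14 the deepest falls were those of Mrps18b (-0.43) and Mrps11 (-0.41).

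The members lie on 17 chromosomes, and their start regions were read for motifs. RefSeq promoter sequences (GRCm38.p6, from 250 bases before to 50 bases after the annotated start) were given for 67 members, of which the windows of Mrps11 and Mrpl46 overlap. Both strands were searched for CCGGAAG, the core bound by ETS factors such as GABP, for a form of the NRF1 site that reads GCGCA, any base, GCGC, and for AANATGGCG, a form of the YY1 site. These factors are known regulators of nuclear genes for mitochondrial proteins. The ETS letters were in 23 of 67 member promoters (34.3%) in 9.1% of all 27025 promoters and in 18.5% of the 9293 promoters of genes tested in the differentiation. The NRF1 letters were in 12 members (17.9%), in 4.8% of all promoters and in 10.7% of those of tested genes. The YY1 letters were in 10 members (14.9%), in 2.5% of all and in 5.5% of tested genes. CCAAT, a common promoter motif, was in 40.3% of member promoters, in 37.9% of all and in 39% of tested genes.

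The motifs were also counted by the calls of day 14 against day 1. Of the 7 rising members with a promoter sequence 5 held the NRF1 letters, namely Mrpl9, Mrpl14, Mrpl30, Mrps9 and Mrps21, against 1 of the 26 falling members. Of the 33 members not called, 6 held them. Among all genes with a promoter sequence the NRF1 letters were in 9.7% of those that rose, in 11.2% of those that fell and in 11.3% of those not called. No test of this split was made. The ETS letters were in 2 of the 7 rising and 11 of the 26 falling members, and in 14.9% and 19.7% of all genes that rose and fell. The YY1 letters were in none of the rising and 6 of the falling members, and in 4.9% and 5.6% of such genes. The counts are small and describe letters in a window, not bound factors. The 6 promoters below are of members named in the comparisons, chosen after their values were seen to show each motif. Mrpl22 at chr11:58171414-58171713 (+ strand) and Mrps11 at chr7:78782881-78783180 (+ strand) fell over the days, and Mrps9 at chr1:42850983-42851282 (+ strand) and Mrps21 at chr3:95871465-95871764 (- strand) rose. Mrpl32 at chr13:14612988-14613287 (- strand) and Mrps27 at chr13:99344536-99344835 (+ strand) were lower in CD61high. Each is written 5′ to 3′ on the strand of its gene, with matches to the ETS, NRF1 or YY1 letters, on either strand, in capitals.
Mrpl22: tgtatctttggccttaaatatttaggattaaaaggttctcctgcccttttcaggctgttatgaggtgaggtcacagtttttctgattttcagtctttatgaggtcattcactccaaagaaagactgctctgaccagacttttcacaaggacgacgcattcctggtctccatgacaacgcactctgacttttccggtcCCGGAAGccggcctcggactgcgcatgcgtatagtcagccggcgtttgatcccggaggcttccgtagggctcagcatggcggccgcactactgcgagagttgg
Mrps11: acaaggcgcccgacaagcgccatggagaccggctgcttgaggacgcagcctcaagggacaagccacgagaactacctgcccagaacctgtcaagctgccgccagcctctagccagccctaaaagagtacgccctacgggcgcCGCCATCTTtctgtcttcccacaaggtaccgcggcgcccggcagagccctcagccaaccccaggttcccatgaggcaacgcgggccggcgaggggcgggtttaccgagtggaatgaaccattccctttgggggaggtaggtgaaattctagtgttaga
Mrps9: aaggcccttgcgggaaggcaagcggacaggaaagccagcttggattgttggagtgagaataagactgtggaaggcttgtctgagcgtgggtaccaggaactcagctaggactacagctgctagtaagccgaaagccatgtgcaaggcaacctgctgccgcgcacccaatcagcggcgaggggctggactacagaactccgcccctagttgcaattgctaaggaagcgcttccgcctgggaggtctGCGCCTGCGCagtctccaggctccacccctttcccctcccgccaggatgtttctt
Mrps21: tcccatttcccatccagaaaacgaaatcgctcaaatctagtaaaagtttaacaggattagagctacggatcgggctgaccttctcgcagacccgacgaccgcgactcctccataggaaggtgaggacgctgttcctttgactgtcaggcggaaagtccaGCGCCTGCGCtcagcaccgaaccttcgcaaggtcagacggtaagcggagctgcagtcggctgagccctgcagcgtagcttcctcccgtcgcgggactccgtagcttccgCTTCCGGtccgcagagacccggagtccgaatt
Mrpl32: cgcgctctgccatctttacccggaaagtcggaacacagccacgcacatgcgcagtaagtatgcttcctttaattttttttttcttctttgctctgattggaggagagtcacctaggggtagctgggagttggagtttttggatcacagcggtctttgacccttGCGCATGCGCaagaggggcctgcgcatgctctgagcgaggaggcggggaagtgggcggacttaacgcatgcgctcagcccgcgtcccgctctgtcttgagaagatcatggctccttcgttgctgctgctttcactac
Mrps27: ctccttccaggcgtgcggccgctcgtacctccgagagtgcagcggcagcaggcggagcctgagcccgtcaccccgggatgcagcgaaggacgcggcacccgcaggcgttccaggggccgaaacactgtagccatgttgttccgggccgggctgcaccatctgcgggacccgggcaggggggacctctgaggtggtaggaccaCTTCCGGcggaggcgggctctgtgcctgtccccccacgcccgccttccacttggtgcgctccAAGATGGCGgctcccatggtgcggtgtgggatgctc

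In these windows Mrpl22 holds 1 ETS match, Mrps11 1 YY1 match, Mrps9 and Mrpl32 1 NRF1 match each, Mrps21 1 ETS and 1 NRF1 match, and Mrps27 1 ETS and 1 YY1 match. The matches of a promoter do not overlap. Mrps9 and Mrpl32 carry the same NRF1 pattern and moved in different comparisons, Mrps9 up over the days and Mrpl32 down in CD61high.

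The sort asked how the members differ between cells with much and with little surface CD61. By edgeR's quasi-likelihood test, 7 of 74 members (9.46%) were lower in CD61high, 4 (5.41%) were higher and 63 were not called. Across all 12077 genes tested 16% were lower and 19.4% higher. The median Log2FC was -0.11, beside 0.00 for all genes. Mrpl32 alone passed a Log2FC of 1 together with the call, downwards, as 4.37% of all genes did and 4.84% did upwards. The sum of the members was 2269, 2223 and 1976 TMM-scaled CPM in CD61low and 1904, 2186 and 2113 in CD61high, and these ranges overlapped. The counts also depended on single libraries, with 4 lower without CD61low replicate 1, CD61low replicate 2, CD61high replicate 1 or CD61high replicate 3, and 12 lower without CD61low replicate 3. The higher count was 2 without CD61low replicate 1 or 3, 1 without CD61high replicate 3, and 0 by edgeR without replicate 2 of either gate (10 higher at an unadjusted p below 0.05 in each). The median ran from -0.19 without CD61low replicate 3 to -0.05 without CD61high replicate 1. Of all genes, the 6 omissions called between 10.9% and 15.9% lower and between 13.6% and 17.5% higher.

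The counts depend on the scaling. As a share of all counts, the members took 0.239% ± 0.0198 in CD61low and 0.186% ± 0.0141 in CD61high (SD, n = 3), and these shares did not overlap. TMM factors were 1.10 to 1.13 in CD61low and 0.895 to 0.909 in CD61high. With scaling by library size alone the median of all genes moved by -0.30, and 38 members were lower and 0 higher (1 higher at an unadjusted p below 0.05 by edgeR), beside 39.9% of all genes lower and 9.32% higher. Under both scalings the members' median lay 0.12 below that of all genes. CD61low replicate 3 and CD61high replicate 1 had the lowest sums of their gates. Without these 2 libraries, a choice made after the data were seen, 9 members were lower and 5 higher.

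Mrpl32, a large subunit protein that is matured by a protease of the inner membrane before it joins the ribosome, showed the largest difference. It measured 19.4, 17.6 and 16.3 TMM-scaled CPM in CD61low and 7.10, 9.44 and 8.94 in CD61high (Log2FC -1.06 ± 0.136, adjusted p = 0.000114). Mrps27, a pentatricopeptide repeat protein of the small subunit, measured 20.1, 21.3 and 18.9 against 10.0, 10.1 and 10.3 (Log2FC -0.99 ± 0.104, adjusted p = 2.95e-05). Mrpl13, an RNA-binding protein of the large subunit, measured 36.9, 40.5 and 36.1 against 18.6, 23.1 and 22.6 (Log2FC -0.82 ± 0.103, adjusted p = 0.000104). In all 3 genes every CD61high library lay below every CD61low library. These calls, and that of Mrps18b (35.1 ± 2.72 against 24.7 ± 1.505, SD, n = 3, Log2FC -0.51), held when any single library was left out.

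Mrps22 (Log2FC -0.49), Mrps2 (-0.41) and Mrps30 (-0.40) were also lower in CD61high, without overlap. Each of these 3 calls was lost without any 1 of CD61low replicate 1, CD61low replicate 2, CD61high replicate 1 and CD61high replicate 3. That of Mrps22 was also lost with the offset for effective length. With the replicate number as a block, the calls of Mrps22 and Mrps30 were lost too.

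On the higher side, Mrpl11, at the base of the stalk, measured 16.6, 14.3 and 14.9 in CD61low and 21.5, 26.7 and 20.5 in CD61high (Log2FC 0.58 ± 0.124, adjusted p = 0.00291). Mrps21 measured 70.1, 66.1 and 57.7 against 78.7, 94.2 and 94.5 (Log2FC 0.46 ± 0.0986, adjusted p = 0.00294). Mrpl24 had a Log2FC of 0.41 (adjusted p = 0.00700) and Mrpl51 of 0.40 (adjusted p = 0.00955). Among these 4 no library of 1 gate crossed into the other. The call of Mrpl51 was lost under RLE size factors, with TMM after the filter, with filterByExpr and with the replicate number as a block. With an offset for effective length the calls of Mrpl51, Mrpl24 and Mrps21 were lost, and Mrpl11 alone stayed higher. Each of the 4 calls was lost without CD61low replicate 2 and without CD61high replicate 2, and those of Mrpl51 and Mrpl24 also without CD61low replicate 1, CD61low replicate 3 or CD61high replicate 3; that of Mrps21 was lost as well without CD61high replicate 3. Mrpl23 had a Log2FC of 1.06 but measured 5.88, 3.24 and 2.78 against 3.52, 6.05 and 15.2, so that its gates overlapped and it was not called (adjusted p = 0.0859).

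**Figure D3:**
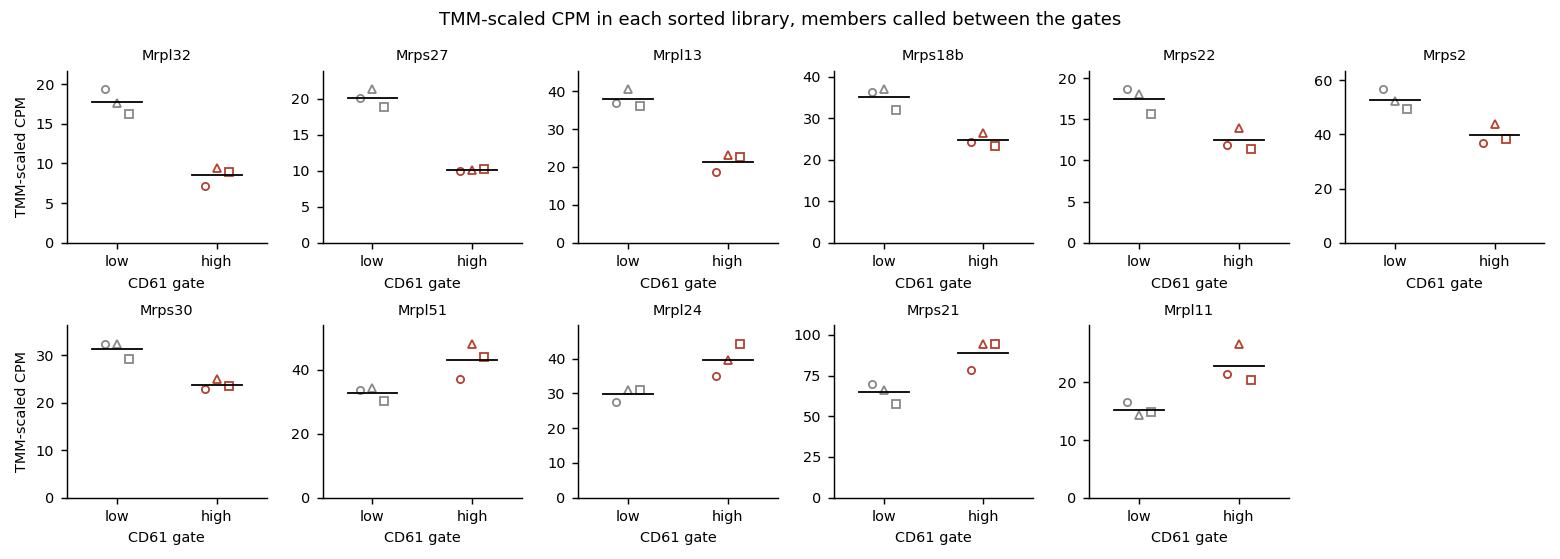
TMM-scaled CPM (vertical axes, from 0) in each sorted library for the 11 members called between the gates, from the lowest to the highest Log2FC; circles, triangles and squares are replicates 1, 2 and 3 and bars are means of n = 3. The gates are separate in every panel, and the CD61high libraries of Mrps27 lie between 10.0 and 10.3.

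6 members were called in both day 14 against day 1 and the sort, which share no libraries. Mrpl24 (Log2FC 0.28 and 0.41) and Mrps21 (0.14 and 0.46) were higher in both. Mrpl13 (-0.36 and -0.82), Mrps18b (-0.51 and -0.51), Mrps2 (-0.30 and -0.41) and Mrps27 (-0.27 and -0.99) were lower in both. Thus 4 of the 7 members lower in CD61high (57.1%) had also fallen over the days, beside 70.7% of all genes lower in CD61high. These 4 are 13.8% of the 29 members that fell and were tested in both, beside 31.4% of all such genes. Of the 4 members higher in CD61high, 2 (50%) had also risen over the days, beside 69.6% of all genes higher in CD61high. They are 22.2% of the 9 members that rose, beside 41.8% of all such genes. These shared counts rest in part on calls that were lost under several of the single-library omissions given above. Such were the calls of Mrpl24, Mrps2 and Mrps21 in the sort and of Mrps21 over the days. Over the days, the call of Mrps27 was lost under TMM scaling, by edgeR on recovered reads, without a filter on low CPM and without a variance trend. It was also lost without day 1 replicate 2, day 14 replicate 1 or day 14 replicate 2. Across the 73 members tested in both, the Log2FC had a Pearson r of 0.34 and a Spearman rho of 0.41, with 38 lower in both, 12 higher in both and 23 opposite. Over all 11445 genes the r was 0.57 and the rho 0.54, with 4097 lower in both, 3841 higher in both and 3507 opposite. These are correlations across genes, which are not independent replicates.

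The 3 deepest falls of differentiation were not called in the sort. Mrps6 had a Log2FC of -0.37 between the gates (adjusted p = 0.0545) and Mrpl16 of -0.16 (adjusted p = 0.378), and neither was called. Mrpl22 measured 13.2, 14.4 and 10.9 TMM-scaled CPM in CD61low and 8.27, 10.7 and 6.94 in CD61high, without overlap. Its Log2FC of -0.57 (adjusted p = 0.0195) was deeper than that of the called Mrps18b, and it was called by DESeq2, under library size alone and without CD61low replicate 3 or CD61high replicate 2. Conversely Mrpl32 had gone from 17.4 and 19.5 CPM to 15.1 and 15.5 CPM over the days, a Log2FC of -0.25 that was not called. It was called lower when only the 4 libraries compared were fitted.

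Other genes of mitochondrial translation were set beside the members. Of 5 ribosomal proteins with other names, Chchd1, Aurkaip1 and Gadd45gip1 fell from day 7 to day 10, with Log2FC of -0.59, -0.49 and -0.55, and rose from day 10 to day 14 by 0.37, 0.36 and 0.36. Dap3 and Ptcd3 did not pass the test in the interval from day 7 to day 10. Ptcd3 fell from day 10 to day 14 (Log2FC -0.33), and at day 14 against day 1 Ptcd3 (-0.32) and Dap3 (-0.16) had fallen. Between the gates the 5 had Log2FC from -0.18 to 0.15. Of 27 assembly and rRNA modification genes tested, 10 fell (37%) and 6 rose (22.2%) at day 14 against day 1. Of all genes 36% fell and 32.6% rose. Mpv17l2, which acts in the assembly of the ribosome, went from 33.0 and 34.4 to 17.98 and 18.5 CPM (Log2FC -0.85). Ngrn, a regulator of the large mitochondrial rRNA, went from 19.1 and 21.9 to 28.7 and 32.5 CPM (0.56). In the sort 3 of the 27 were lower in CD61high (11.1%, beside 16% of all genes), led by Mrm3, an rRNA methyltransferase (Log2FC -1.01).

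Of 17 translation factors 7 fell (41.2%) and 3 rose (17.6%) at day 14 against day 1, beside 36% and 32.6% of all genes. The elongation factor Tsfm went from 35.8 and 36.9 to 20.5 and 23.6 CPM (Log2FC -0.70) and the release factor relative Mtrfr from 14.8 and 14.8 to 22.9 and 24.2 CPM (0.64). In the sort 3 of the 17 were lower (17.6%) and 1 higher (5.88%), beside 16% and 19.4% of all genes. Guf1 stood at -0.77 and the inner membrane insertase Oxa1l at 0.36. Of 17 mitochondrial aminoacyl-tRNA synthetases 6 fell (35.3%) and 5 rose (29.4%) over the days. Of 10 genes of mitochondrial DNA transcription and replication 3 fell, led by the RNA polymerase Polrmt (42.0 and 40.0 to 26.6 and 28.9 CPM, Log2FC -0.55), and none rose (4 of the 10 had an unadjusted p below 0.05 by limma, in either direction). Tfam, which packages mitochondrial DNA, was lower in CD61high (23.6, 26.6 and 19.7 against 13.9, 14.6 and 15.2 TMM-scaled CPM, Log2FC -0.67).

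Of 8 tested regulators of mitochondrial genes 5 rose (62.5%) and 1 fell (12.5%) at day 14 against day 1, beside 32.6% and 36% of all genes. Myc rose from 80.6 and 82.1 to 115 and 121 CPM and Pprc1 fell from 199 and 193 to 138 and 136 CPM. Esrra was higher in CD61high with a Log2FC of 0.55.

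The RNAs that the mitochondrial ribosome contains and reads were counted as well. Both mitochondrial rRNAs rose from day 7 to day 10. The values of mt-Rnr1 went from 75.4 and 83.0 to 159 and 167 CPM (Log2FC 1.03). Those of mt-Rnr2 went from 78.5 and 84.3 to 246 and 267 CPM (1.64). From day 1 to day 7 the 2 rRNAs had gone apart, 1 called higher (Log2FC 0.70) and 1 lower (-0.80). At day 1 mt-Rnr1 averaged 48.2 CPM, beside 3031 CPM for the mRNA mt-Co1. Whether these values follow the rRNA content of the cells was not tested. 6 of the 13 mRNAs of the mitochondrial genome are listed at 0 in the differentiation table and were not tested. The other 7 rose from day 7 to day 10, where 29 of the 75 members fell, with a median Log2FC of 0.40, and 6 of these 7 fell from day 10 to day 14. Under TMM scaling 6 of the 7 rose in the former interval. In the sort, where the rRNAs have no values here, mt-Co1 and mt-Nd5 were higher in CD61high (Log2FC 0.30 and 0.29) and the other 11 mRNAs were not called. These 2 calls depended on the scaling, since 1 of the 13 was called higher with RLE size factors. Under library size alone neither was called higher, 2 of the 13 were called lower and the median of the 13 was -0.19, beside 0.11.

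The proteins of the cytosolic ribosome, which translates all nuclear mRNAs, were read in the same fits. From day 1 to day 7, 53 of 72 cytosolic ribosomal protein genes rose and 3 fell (median Log2FC 0.41), where 11 mitochondrial members rose and 16 fell. From day 10 to day 14, 3 rose and 38 fell (median -0.22), where 15 members rose and 8 fell. At day 14 against day 1, 48 rose and 9 fell (median 0.29). In the sort 58 of 74 were higher in CD61high, with a median of 0.62, and 73 of the 74 had a Log2FC above 0; with library size alone 27 were higher and 1 lower. Nuclear genes for subunits of the respiratory chain and of ATP synthase stood nearer to the members in the interval from day 7 to day 10. In it 44 of 83 fell and 5 rose (median -0.18, beside -0.15 for the members). In the sort 13 were higher and 5 lower (median 0.16), and with library size alone 4 were higher and 26 lower. These lists are set side by side as counts, to be read with the shares of all genes given above for each comparison. The difference between the lists was not tested.

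**Figure D4:**
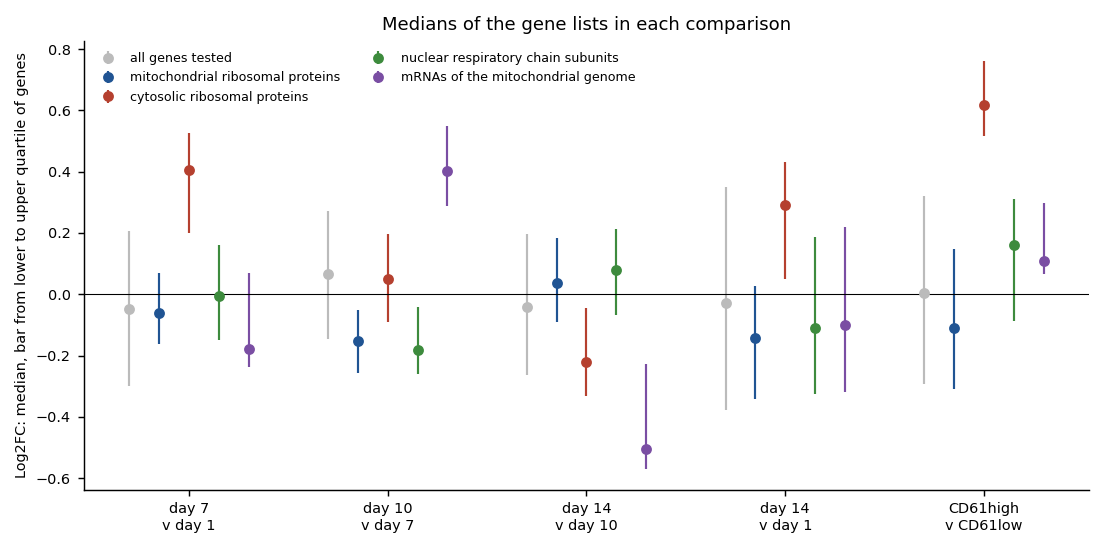
Median Log2FC (points) with the lower to the upper quartile of genes (bars) in each of the 5 comparisons. The lists are all genes tested, mitochondrial ribosomal proteins, cytosolic ribosomal proteins, nuclear respiratory chain subunits (with ATP synthase) and mRNAs of the mitochondrial genome. The last holds 7 genes in the differentiation and 13 in the sort. From day 7 to day 10 the members and the nuclear subunits lie below 0, at -0.15 and -0.18, while the mitochondrial mRNAs lie at 0.40; in the sort the cytosolic proteins lie at 0.62 and the members at -0.11.

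Markers of division and of other cell types were read in the same comparisons. The 15 proliferation markers summed to between 3109 and 3164 CPM at day 1 and between 2916 and 2950 CPM at day 14. By then 6 had fallen (40%) and 3 risen (20%), beside 36% and 32.6% of all genes. The 15 summed to between 2468 and 2734 in CD61low and between 2962 and 3190 in CD61high. There 8 were higher (53.3%) and 2 lower (13.3%), beside 19.4% and 16% of all genes. From day 7 to day 10, 10 of the 15 fell and 1 rose, beside 18.9% and 29.8% of all genes. From day 10 to day 14, 8 of the 15 rose and 5 fell, beside 22.9% and 30% of all genes. Most of the sum of the 12 osteoblast and osteocyte markers was Col1a1, which measured 34732 and 34687 CPM at day 1 and 27852 and 22633 CPM at day 14 and is 1 of the 2 tested markers that fell. The 12 summed to between 35639 and 35693 CPM at day 1, between 29741 and 34918 at day 14, between 17690 and 21624 in CD61low and between 50273 and 52986 in CD61high. 8 blood cell markers summed to between 7.37 and 7.97 at day 1, between 6.32 and 7.38 at day 14, between 17.1 and 22.7 in CD61low, with 2 at 0, and between 12.5 and 13.2 in CD61high, with 3 at 0. In the sort Cd68 was lower in CD61high (15.1, 12.2 and 15.3 against 8.57, 8.52 and 7.12 TMM-scaled CPM, Log2FC -0.81), and Cd14 was not called. 6 endothelial markers summed to between 7.94 and 8.37 at day 1, between 16.03 and 17.2 at day 14, between 3.75 and 6.79 in CD61low and between 9.12 and 9.80 in CD61high. Nearly all of this was Erg, with the other 5 at or below 0.478 in the libraries of these groups. 5 adipocyte markers stayed below 1 in every library. Their part in the differences between the members was not tested.

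Many members lie close to other genes. In the GENCODE M39 annotation (GRCm39), 57 of the 76 share exon bases with another gene, 54 of them on the opposite strand and 7 on the same strand, and whether the counting used strand is not given in the sources used here. Reads from such pairs may not have been told apart. Mrpl13, on chr15:55385722-55421144, overlaps Mtbp, which was lower in CD61high by nearly the same amount (Log2FC -0.81, beside -0.82). Mrps27, on chr13:99480757-99552086, overlaps Ptcd2, at -0.95 beside -0.99. Mrpl4 overlaps S1pr2, a receptor for sphingosine phosphate, and their Log2FC over the days were -0.70 and -0.92. Mrpl51 overlaps the condensin gene Ncapd2, at 0.40 and 0.81 between the gates. Other pairs went apart. Mrpl2 fell over the days (Log2FC -0.45) while its neighbour Klc4 rose (0.48), and Mrps18b fell (-0.51) while Ppp1r10 rose (0.36). In the sort, however, Mrps18b (-0.51) and Ppp1r10 (-0.48) were both lower in CD61high. Mrps11 and Mrpl46, both members, overlap each other and both fell (-0.69 and -0.24). The call of Mrpl46 was lost under TMM scaling, by edgeR on recovered reads, without a filter on low CPM and without a variance trend. Leaving out day 1 replicate 2 or day 14 replicate 2 ended it as well. Mrpl32, on chr13:14782769-14787750, and Mrps35, on chr6:146944205-146975489, have no such neighbour.

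Levels of the members were not the same in the 2 experiments, which were counted in different ways. The ratio of the mean CPM in the sort to that in the differentiation had a median of 0.752 over 75 members. Mrpl53 was almost unseen in the differentiation, at no more than 0.240 CPM in any library, and measured between 16.6 and 24.2 TMM-scaled CPM in the sort. Mrpl1 showed the reverse, with 20.9 to 27.2 CPM against at most 3.40. Mrps28 measured 22.9 to 34.5 CPM against 5.52 to 7.08, and Mrps33 5.81 to 6.63 CPM against 19.2 to 27.5. For these genes no level across the experiments was compared further. Mrpl53 was left untested in the differentiation and Mrpl1 in the sort.

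1 member and 2 relatives were read apart. Mrpl33, a member that fell from 55.9 and 57.6 to 37.7 and 37.9 CPM at day 14 (Log2FC -0.57), appears in the sort under a newer identifier than in the differentiation table, with a Log2FC of -0.13 (adjusted p = 0.319). Mrpl57 and Mrpl58 are listed under older symbols in the differentiation table and so fell outside the rule. Mrpl57 fell from 28.8 and 30.6 to 20.3 and 23.7 CPM at day 14 (Log2FC -0.42), and Mrpl58, a peptidyl-tRNA hydrolase within the ribosome, had a Log2FC of 0.01 over the days and 0.00 between the gates.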

How the data were processed

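RNA was sequenced from 8 differentiation and 6 sorted libraries of Ocy454 cells. For the former, the deposited CPM were made by the authors from STAR alignments and HTSeq-count gene counts, and GRCm39 is named in the submitters' processing notes. Of these values 99.999% gave whole reads (within 0.01), so reads were recovered. For the latter, the authors deposited Salmon estimated counts and TPM per transcript (GRCm39), which were summed per gene through GENCODE M39 (99.3% to 99.4% of counts matched) and rounded. The differentiation was tested with limma 3.58.1 (eBayes with trend) on log2(CPM + 1) over all genes above 1 CPM in at least 1 library, with day as a factor and all 8 libraries in 1 fit. The sort was tested with edgeR 4.0.16 (quasi-likelihood, TMM) over genes whose normalized count reached 5 in each of the 6 libraries. R was 4.3.3. P-values were adjusted by Benjamini-Hochberg over all genes tested, and both fits were tested on simulated data. DESeq2 1.42.0 served as an alternative. A Log2FC on the log2(CPM + 1) scale understates changes of low genes. edgeR on the recovered reads called 4432 genes higher and 4293 lower at day 14 against day 1.

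Members named are the 6 with the largest rise and fall at day 14 against day 1 and in the sort, and the 2 in each interval, among called members without overlap and with a mean of at least 5 CPM. Others are the 4 highest and lowest by TPM, members with a known place or history, and the largest rise and fall of each pathway list, of which 1 is not reported here. Members named for their neighbours, for their level in the 2 experiments, or as Mrpl23 was, were picked after their values were seen. The members and lists were chosen with earlier results of these data known. The respiratory chain list was taken by symbol, holds the Atp5 genes of ATP synthase and was not cleared of related paralogs. Genes whose symbols begin with Cyb were left out of it. Reads without molecular identifiers are not independent molecules.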

Additional observations from a re-analysis of the deposited data

How the results depend on the processing

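Results are given for the members lower or higher in each comparison and their median Log2FC. At day 14 against day 1, 25 to 31 members fell and 6 to 9 rose when single libraries were left out, with medians from -0.17 to -0.10. The median was -0.18 with a pseudocount of 0.1, -0.17 after quantile normalization and -0.11 under TMM. From day 1 to day 7 the same omissions gave 5 to 12 rising, 8 to 16 falling and medians from -0.0789 to -0.0407. Without a filter 6 rose and 9 fell, and without a variance trend 6 rose and 8 fell. TMM and edgeR on recovered reads gave 10 falling each, and the medians were -0.0259 (quantile), -0.0165 (TMM) and -0.0174 (edgeR).

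From day 7 to day 10, omissions gave 0 to 2 rising, 16 to 32 falling and medians from -0.18 to -0.14. No filter and no trend gave 16 falling each. The rising count was 0 in these and under quantile, TMM and edgeR (7 and 6 without filter or trend, and 2, 1 and 1, at an unadjusted p below 0.05). It was 2 when only the 4 libraries compared were fitted and 6 at an adjusted p below 0.05. Medians were -0.23 (quantile), -0.22 (TMM) and -0.23 (edgeR). From day 10 to day 14, omissions gave 11 to 16 rising, 4 to 10 falling and medians from 0.0089 to 0.0690. The falling count was 5 without a filter, 5 under TMM, 5 by edgeR and 3 without a trend, the rising count 23 at an adjusted p below 0.05, and the median 0.0828 (TMM) or 0.11 (edgeR).

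In the sort, omissions gave 0 to 5 higher, 4 to 12 lower (12 without CD61low replicate 3) and medians from -0.19 to -0.05. DESeq2 called 11 lower, beside 18.2% of all genes. Library size alone gave 0 higher, 38 lower and a median of -0.41. An offset for effective length gave 1 higher, and an adjusted p below 0.05 gave 7 higher and 18 lower. With the replicate number as a block 3 were higher and 6 lower in the sort, and 10 rose and 30 fell at day 14 against day 1. Same-numbered sorted libraries had correlations of deviations of -0.361, 0.257 and -0.0726, and the highest correlation was that of CD61low replicate 3 with CD61high replicate 1 (0.517). The sorted cells came from 3 groups of cells, but no source used here ties the numbers to them, so the numbers were not taken as pairs. The block ended the calls of Mrps22, Mrps30 and Mrpl51 and added that of Mrpl22 in the sort, and it added that of Mrpl45 at day 14 against day 1. The cause of these shifts was not tested, except that fewer libraries leave less to estimate the spread. For named members with a call, 621 of the repeats kept it and 71 lost it. For those without, 679 repeats made no call and 31 did, and no called value turned its direction. Members of low count, such as Mrpl23, limit what depth can show.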
